A study of Mus musculus with 4 samples.

Results

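Transcripts of 43 immediate early and MAPK feedback genes were compared between siTIMP1 and siControl transfected cells. The members were found by the gene name printed for each probe in the scanner files. That gave 62 of the 56605 non-control probes on the array. Of these, 53 were tested, which needed a value on all 4 arrays and a signal well above background on both siTIMP1 arrays or on both siControl arrays. All 43 member genes were among the 17647 genes tested. Each had its representing probe well above background on all 4 arrays, so no member passed the filter through 1 group alone. The remaining 9 member probes belong to Egr3, Fosb, Hbegf, Ier2, Junb, Klf10, Sgk1 and Nr4a3, which has a pair of them. Of these, 8 were well above background on no array, and that of Klf10 was so on 1 siTIMP1 array.

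The cells were NIH3T3, an established mouse fibroblast line. The labels call them dermal fibroblasts, while the line is generally known as derived from mouse embryos. The siTIMP1 group (n = 2 arrays) received an siRNA against Timp1, which encodes a secreted inhibitor of matrix metalloproteinases. The siControl group (n = 2 arrays) received a control siRNA. Both groups carry no other stated genetic change, received their siRNA on apatite nanoparticles (sCA in the labels), and were grown in 2% serum. No untransfected cells, time after transfection or siRNA sequence is given in the sources used here. The sources used here do not state that the replicates were separate cultures, and the spread behind each p-value may be only technical. The arrays shared a slide and a scan, and the siTIMP1 arrays took positions 3 and 4 on it, against positions 1 and 2 for siControl. Position and group therefore cannot be told apart.

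Immediate early genes are switched on within minutes of a growth factor, serum or stress signal, without new protein synthesis. In fibroblasts the signal runs through the RAS, RAF, MEK and ERK kinases and their JNK and p38 relatives to SRF with its partners and to CREB on the gene promoters. The first wave encodes transcription factors such as FOS, JUN and EGR1. A second set, the dual-specificity phosphatases and the Sproutys, acts back on the kinases and ends the signal, and the RNAs of both are short-lived.

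Levels are given as the normalised log2 signal, the log2 processed intensity minus the 75th percentile of its array. A value of 0 therefore lies at that percentile and the values of different probes are not on one scale. A fold change is the siTIMP1 mean minus the siControl mean of these log2 values, and SE is its standard error in the limma fit. A gene is called when its limma p, adjusted over all 26015 tested probes with the Benjamini-Hochberg method, is under 0.05. Timp1 itself had processed signals of 1840 and 1492 on the siTIMP1 arrays, against 53297 and 67559 on the siControl arrays. It fell by 5.22 on the log2 scale (SE 0.158, adjusted p = 0.0105). With siTIMP1 replicate 1 left out the fold change was -5.37 (adjusted p = 0.137) and with siTIMP1 replicate 2 left out it was -5.07 (adjusted p = 0.184). In neither of those fits was any of the 26015 probes called. All 9 fibroblast markers were well above background on all 4 arrays, as were 4 of 5 leukocyte markers, and Adgre1 was on none. Itgam, at -0.32 (adjusted p = 0.114), and Csf1r, at -0.29 (adjusted p = 0.189), had both siTIMP1 arrays below both siControl arrays and were not called. Groups overlapped for Cd68, at 0.09, and Ptprc, at 0.01. The part of these markers in the results below was not tested. None of the 4 endothelial markers was tested, and of 5 epithelial markers Krt8 and Krt14 were, with groups that overlapped. Of 4 muscle markers Des was tested, through the siControl arrays, and Acta1 was well above background on all 4 arrays but had an outlier spot on 1 and was left out. Because whole cultures were measured, a lower number of cells expressing a gene and less RNA per cell cannot be told apart.

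Atf3 was the 1 member that rose at the threshold, and no member fell. Over all tested genes 0.085% were called higher and 0.703% lower by the same limma rule. With no adjustment of the p, at the same threshold, 21 of the 43 members (48.8%) were higher, against 11.9% of all tested genes. By that rule 1 member, Tiparp, was lower, against 7.99% of all tested genes. Both siTIMP1 arrays lay above both siControl arrays for 25 members (58.1%) and below them for 1, against 31.1% and 22.9% of all tested genes. The groups overlapped for the other 17 members. The fold change was positive for 35 members and negative for 8, and 54% of all tested genes were positive. Its median over the members was 0.28, with a range from -0.34 to 1.02, and over all tested genes it was 0.02. These shares describe the members, which were chosen with earlier results of these data known, and no test was made over them.

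**Figure D1:**
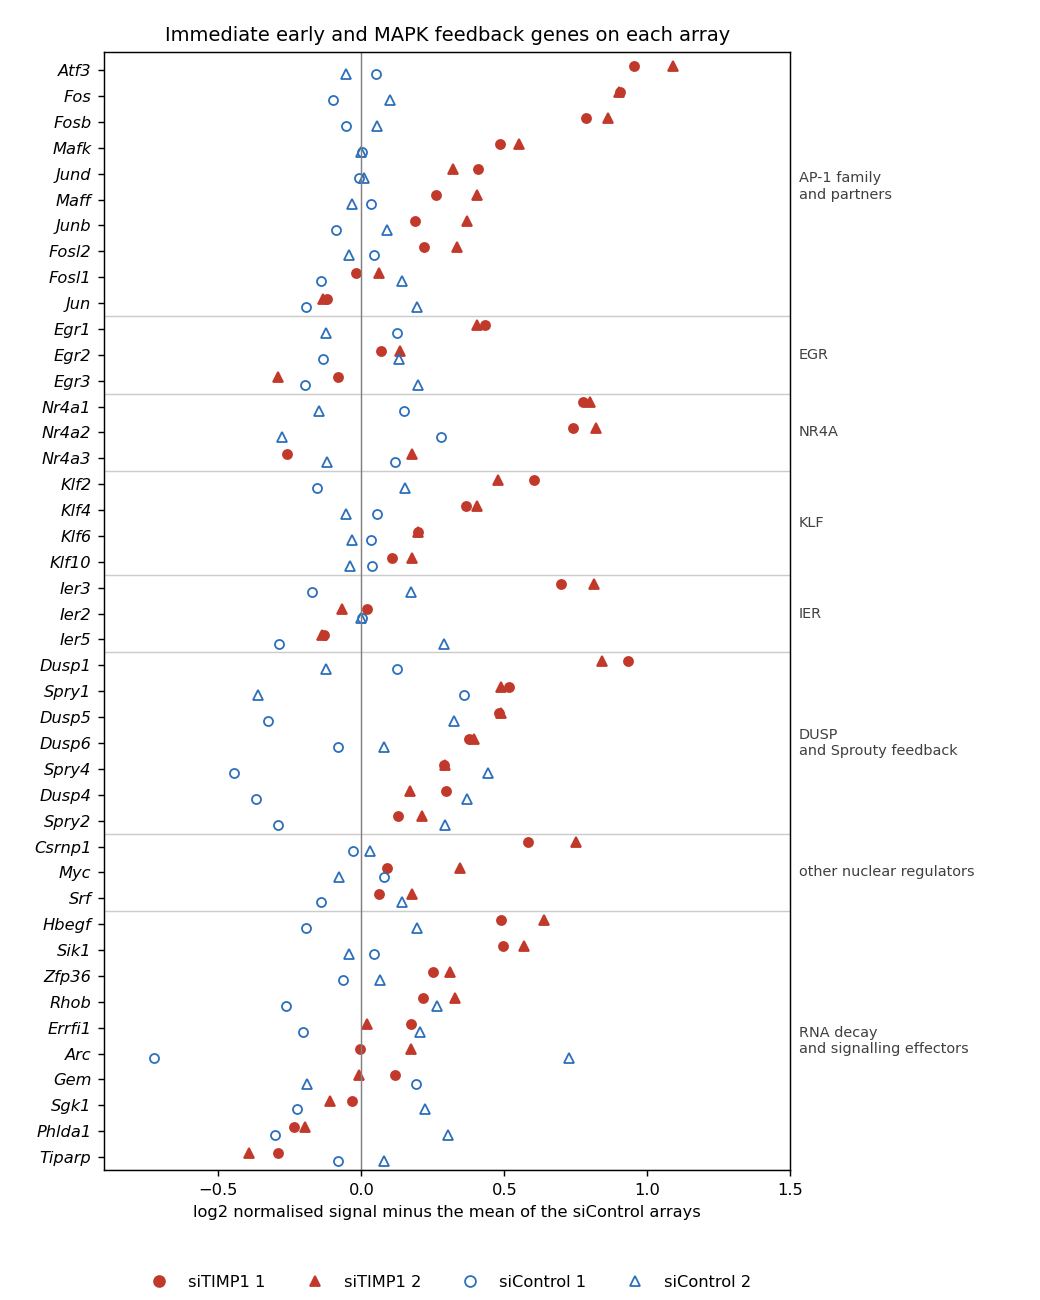
Normalised log2 signal of each member on each array, as the difference from that member's siControl mean (log2 units), ordered by class, with siTIMP1 arrays listed before siControl arrays. Of the 43 members, 25 have both siTIMP1 arrays above both siControl arrays, and Atf3, at a fold change of 1.02, is the farthest above.

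**Figure D2:**
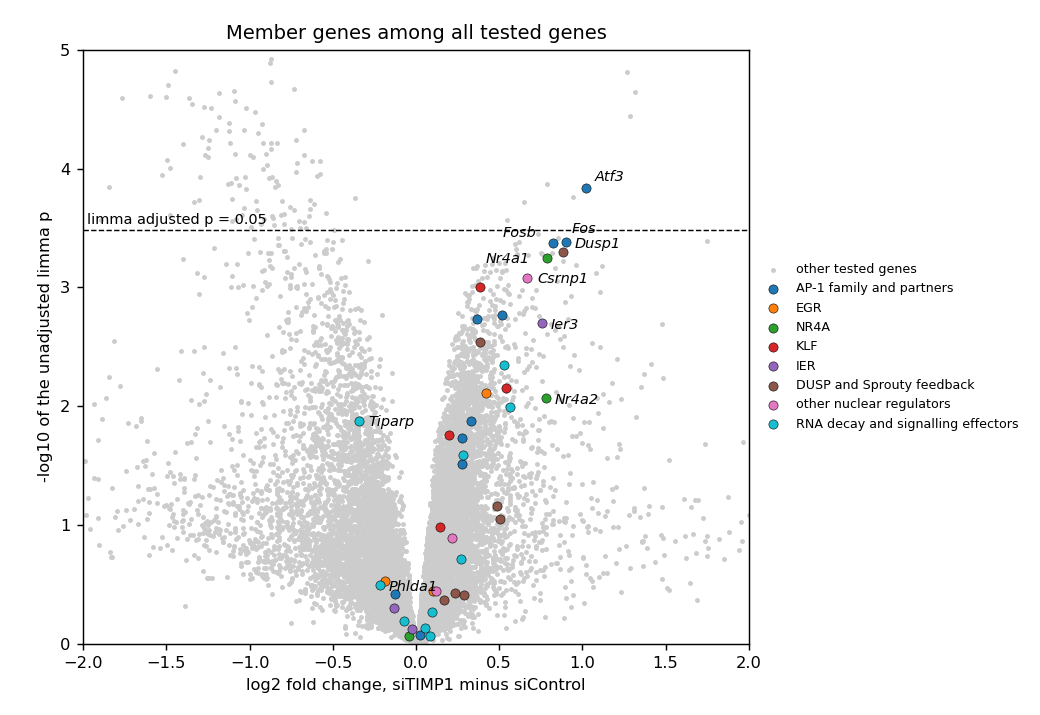
Log2 fold change (siTIMP1 minus siControl, x axis) against -log10 of the unadjusted limma p (y axis) for the members, coloured, over all tested genes, grey. Genes beyond a log2 fold change of 2 either way or above 5 on the y axis, Timp1 among them, lie outside the axes. The members lie mostly right of 0, with a median of 0.28, and Atf3 is the member past the adjusted threshold of 0.05.

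A wider threshold took in more of the transcription factors. At an adjusted p under 0.1, 10 members were higher and none was lower, against 0.856% and 1.59% of all tested genes. Beyond Atf3 they were Fos, Fosb, Dusp1, Nr4a1, Csrnp1, Klf4, Mafk, Jund and Ier3, with adjusted p-values between 0.0546 and 0.0979. The members that changed by over 1.5-fold were Atf3, Fos, Dusp1, Fosb, Nr4a1, Nr4a2, Ier3 and Csrnp1, each higher in siTIMP1. How many of all tested genes passed that fold was not counted.

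The AP-1 proteins bind DNA as dimers of FOS and JUN family members, and ATF3 and the small MAF proteins are their bZIP relatives. Of the 10 members of this class, 1 was called higher and 8 (80%) had groups that did not overlap, all higher in siTIMP1. The class median was 0.35. For this class and those below, 31.1% of all tested genes had groups apart and higher. At an unadjusted limma p under 0.05, 11.9% of all tested genes were higher. Atf3, a stress-induced factor of the ATF family, had 0.98 and 1.11 on the siTIMP1 arrays, against 0.07 and -0.03 on the siControl arrays. Its processed signals were 374 and 410 in siTIMP1 and 196 and 178 in siControl, a 2.03-fold difference. Both siTIMP1 arrays were high and both siControl arrays low, far beyond the distance between the arrays of either group. Atf3 rose by 1.02 in siTIMP1 (SE 0.10, limma adjusted p = 0.0336), and the 95% interval ran from 0.76 to 1.28. The probe is on chromosome 1 at 192994547 to 192994606 (mm9), where the array files assign it to the Atf3 mRNA. Without siTIMP1 replicate 1 the fold change was 1.09 (adjusted p = 0.2), without siTIMP1 replicate 2 it was 0.95 (adjusted p = 0.278), and with no mean-variance trend fitted it stayed at 1.02 (adjusted p = 0.137). The call was lost in these 3 fits, in which no probe on the array was called in either direction. With normexp background correction its adjusted p was 0.0494.

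Fos, the founding AP-1 subunit, had 0.49 and 0.49 in siTIMP1, against -0.51 and -0.31 in siControl. The fold change was 0.90 (SE 0.110), and the limma adjusted p of 0.0546 missed the threshold narrowly. Fosb, its close relative, had 0.33 and 0.41 in siTIMP1, against -0.50 and -0.40 in siControl, with a fold change of 0.82 (SE 0.101, adjusted p = 0.0552). In both genes the siTIMP1 arrays were high and close together and the siControl arrays low. The other AP-1 class members with groups apart were Mafk at 0.52, Jund at 0.36, Maff at 0.33, Junb at 0.28 and Fosl2 at 0.28, none of them called. The groups overlapped for Fosl1, at 0.02, and for Jun, at -0.13. Jun, the main partner of FOS, had 4.63 and 4.62 in siTIMP1, against 4.56 and 4.95 in siControl, so that siControl replicate 2 lay above the other 3 arrays. A second, dimmer probe of Fosl2 went the other way, at -0.67 (SE 0.555), with -3.79 and -3.19 in siTIMP1 and -3.58 and -2.05 in siControl.

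The upstream sequence of Atf3 is shown as that of the 1 called member, beside those of Dusp1, Dusp5 and Csrnp1, further members described here in which a searched motif was found. Each line gives the 250 bases before a RefSeq start site on the gene's own strand, from build GRCm38.p6, with motif matches in capitals. Csrnp1 has several start sites, and the one printed was taken for its match. Atf3 lies at chr1:191183334-191183583 on the minus strand and holds no match. In Dusp1 (chr17:26508473-26508722, minus strand) the capitals mark a cAMP response element, TGACGTCA. In Dusp5 (chr19:53528895-53529144, plus strand) they mark a pair of adjoining CArG boxes, the site read by SRF. In Csrnp1 (chr9:119983024-119983273, minus strand) they mark a pair of AP-1 sites, TGANTCA.
Atf3: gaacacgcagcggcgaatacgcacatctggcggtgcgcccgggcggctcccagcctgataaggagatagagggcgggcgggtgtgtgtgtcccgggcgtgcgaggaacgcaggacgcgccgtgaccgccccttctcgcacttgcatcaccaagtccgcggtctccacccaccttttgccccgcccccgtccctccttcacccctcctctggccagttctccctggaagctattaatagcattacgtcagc
Dusp1: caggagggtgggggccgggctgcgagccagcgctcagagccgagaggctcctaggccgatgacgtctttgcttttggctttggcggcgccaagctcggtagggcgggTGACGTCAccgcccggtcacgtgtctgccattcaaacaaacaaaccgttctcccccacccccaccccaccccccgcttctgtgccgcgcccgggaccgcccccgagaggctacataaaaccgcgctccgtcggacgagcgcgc
Dusp5: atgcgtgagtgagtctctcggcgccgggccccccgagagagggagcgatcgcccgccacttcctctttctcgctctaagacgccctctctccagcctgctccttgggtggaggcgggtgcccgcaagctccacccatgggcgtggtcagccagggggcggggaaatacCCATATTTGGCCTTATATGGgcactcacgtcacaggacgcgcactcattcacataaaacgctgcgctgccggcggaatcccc
Csrnp1: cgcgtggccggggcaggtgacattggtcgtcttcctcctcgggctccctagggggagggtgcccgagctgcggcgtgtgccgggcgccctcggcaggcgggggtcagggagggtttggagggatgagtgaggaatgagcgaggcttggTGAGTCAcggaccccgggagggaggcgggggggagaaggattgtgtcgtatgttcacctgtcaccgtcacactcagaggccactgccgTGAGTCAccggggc

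The reference promoters, windows from 250 bases before to 50 after a start site, covered 30 of the 43 members and 27025 genes in all. A gene with several start sites was counted when any of its windows held a match. Both strands were read, and matches of different motifs did not overlap in any member. The CRE letters TGACGTCA were found in 3 of the 30 members (10%), Maff, Dusp1 and Errfi1, against 2.03% of all genes. A CArG box was found in 4 (13.3%), Egr2, Dusp5, Srf and Zfp36, against 1.81%. The AP-1 letters TGANTCA were in 1 member (3.33%), Csrnp1, against 8.97%, and the EGR letters GCGTGGGCG in 1 (3.33%), Maff, against 0.707%. The CRE of Dusp1 starts 143 bases before the start site and the CArG boxes of Dusp5 start 82 and 72 bases before it. The AP-1 sites of Csrnp1 start 102 and 14 bases before 1 of its start sites, and its other windows hold no match. Maff, Errfi1 and Egr2 also have windows that hold no match. Among members with a CArG box in this window the fold change was 0.49 for Dusp5 and 0.28 for Zfp36, against 0.12 for Srf and 0.10 for Egr2, and none was called. Those with a CRE ranged from 0.89 for Dusp1 to 0.33 for Maff and 0.10 for Errfi1. A match is a description of the letters and not evidence that a factor bound there.

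The EGR factors are zinc finger proteins of which EGR1 is the classical serum-response gene. No member of the class was called. At an unadjusted limma p under 0.05, 1 of 3 (33.3%) was higher, against 11.9% of all tested genes. Groups were apart and higher for 1 of 3 (33.3%), near the 31.1% of all tested genes. Egr1 had 3.78 and 3.76 in siTIMP1, against 3.48 and 3.23 in siControl, a fold change of 0.42 (SE 0.098, limma adjusted p = 0.15). Its siTIMP1 arrays were both high and the siControl arrays spread below them. The groups overlapped for Egr2, at 0.10, and Egr3, at -0.19, and a second probe of Egr3 gave 0.12. Without siControl replicate 1 the Egr2 value turned to -0.03, and without siControl replicate 2 that of Egr3 turned to 0.01.

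The NR4A genes encode orphan nuclear receptors that act without a known natural ligand and are induced like FOS. Nr4a1 (Nur77) had 6.57 and 6.59 in siTIMP1, against 5.94 and 5.65 in siControl, with a fold change of 0.79 (SE 0.103, limma adjusted p = 0.0601). Nr4a2 (Nurr1) had 3.42 and 3.50 in siTIMP1, against 2.96 and 2.41 in siControl, a fold change of 0.78 (SE 0.188, adjusted p = 0.154). Both were high and tight on the siTIMP1 arrays, and in both siControl replicate 2 was the lowest array. Nr4a3 had groups that overlapped, with -3.21 and -2.77 in siTIMP1 and -2.83 and -3.07 in siControl (fold change -0.04). No NR4A gene was called, and 2 of 3 were higher at an unadjusted p under 0.05.

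All 4 KLF genes, Krüppel-like zinc finger factors, had both siTIMP1 arrays above both siControl arrays, as did 31.1% of all tested genes. No KLF gene was called, and 3 were higher at an unadjusted limma p under 0.05, against 11.9% of all tested genes. Klf4, known as a growth-arrest and reprogramming factor, had 6.46 and 6.50 in siTIMP1, against 6.15 and 6.04 in siControl (fold change 0.38, SE 0.057, limma adjusted p = 0.0738). Klf2, a quiescence factor best known in endothelium, had 2.98 and 2.85 in siTIMP1, against 2.22 and 2.53 in siControl (fold change 0.54, SE 0.123, adjusted p = 0.145). Klf6 had 4.62 and 4.62 in siTIMP1, against 4.45 and 4.39 in siControl, a fold change of 0.20. Klf10, which is induced by TGF-beta, was at 0.14. The 4 fold changes thus lay between 0.14 and 0.54, with a class median of 0.29.

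Of the IER genes, named only for being immediate early, Ier3 stood alone. It had 3.57 and 3.69 in siTIMP1, against 2.70 and 3.05 in siControl, a fold change of 0.76 (SE 0.130, limma adjusted p = 0.0979). IER3 is known as a stress-inducible regulator of cell survival. Both siTIMP1 arrays were above both siControl arrays by more than the distance between the siControl arrays. The groups overlapped for Ier2, at -0.02, and Ier5, at -0.13, and the class median was -0.02. None of the 3 was called, and Ier3 was the 1 member higher at an unadjusted p under 0.05.

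The feedback genes act on the ERK pathway itself. The DUSP proteins remove phosphate from MAP kinases, DUSP5 and DUSP6 from ERK in particular, DUSP1 also from p38 and JNK, and the Sproutys dampen signalling between receptor and RAF. All 7 had positive fold changes, from 0.17 to 0.89 with a median of 0.39, and 54% of all tested genes were positive. Groups were apart and higher for 4 (57.1%), against 31.1% of all tested genes. At an unadjusted limma p under 0.05, 2 were higher (28.6%), against 11.9% of all tested genes, and none was called. Dusp1 had 1.94 and 1.85 in siTIMP1, against 1.13 and 0.88 in siControl, with a fold change of 0.89 (SE 0.113, limma adjusted p = 0.0582). Dusp6, the ERK-specific cytoplasmic phosphatase, had 5.06 and 5.08 in siTIMP1, against 4.60 and 4.76 in siControl (fold change 0.39, SE 0.072, adjusted p = 0.109). Dusp1 and Dusp6 were the feedback genes with an unadjusted limma p under 0.05.

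For the rest of the feedback genes the siControl arrays differed widely. Dusp5, the nuclear ERK phosphatase, had 4.62 and 4.63 in siTIMP1, against 3.82 and 4.47 in siControl (fold change 0.49, SE 0.211, limma adjusted p = 0.307). Spry1 had 1.47 and 1.44 in siTIMP1, against 1.31 and 0.59 in siControl (fold change 0.50, SE 0.240, adjusted p = 0.338). The low array was siControl replicate 1 for Dusp5 and siControl replicate 2 for Spry1. Without that array the fold change was 0.16 for Dusp5 and 0.14 for Spry1. Dusp4 had 4.23 and 4.11 in siTIMP1, against 3.57 and 4.31 in siControl, and the groups overlapped. Spry4 had -1.75 and -1.75 in siTIMP1, against -2.49 and -1.60 in siControl, and also overlapped. Without siControl replicate 1 the values of Dusp4, Spry2 and Spry4 turned negative, at -0.14, -0.12 and -0.15. Leaving out siControl replicate 1 gave a class median of 0.16, and leaving out siControl replicate 2 gave 0.60. A second probe of Spry2 gave -0.24, against 0.17 for the brighter one.

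Among the remaining nuclear regulators, Csrnp1, a cysteine- and serine-rich nuclear protein, had 1.70 and 1.86 in siTIMP1, against 1.09 and 1.14 in siControl. Its fold change was 0.67 (SE 0.094, limma adjusted p = 0.0677), and the distance between the groups was larger than that within either. Myc, the growth-promoting transcription factor, had 1.68 and 1.94 in siTIMP1, against 1.67 and 1.51 in siControl, a fold change of 0.22 with an adjusted p of 0.387. The lower siTIMP1 array of Myc lay barely above the higher siControl array, and a dimmer Myc probe gave -0.05. Srf, the factor on which many of these promoters depend, was at 0.12 with groups that overlapped. None of the 3 was called, and Csrnp1 was the 1 higher at an unadjusted p under 0.05.

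The effectors carry the response outside the nucleus and in RNA turnover, and 7 of the 10 had positive fold changes. None was called, unadjusted p-values under 0.05 gave 3 higher and 1 lower, and the median was 0.09. That median was -0.05 with siControl replicate 1 left out and 0.32 with siControl replicate 2 left out. Hbegf, a membrane-anchored EGF receptor ligand, had 4.49 and 4.64 in siTIMP1, against 3.81 and 4.20 in siControl (fold change 0.56, SE 0.142, limma adjusted p = 0.160). Sik1, a salt-inducible kinase, had -0.53 and -0.45 in siTIMP1, against -0.98 and -1.07 in siControl (fold change 0.53, SE 0.109, adjusted p = 0.124). Zfp36, which encodes tristetraprolin and directs the decay of AU-rich mRNAs, was at 0.28 with groups apart. Tiparp, a mono-ADP-ribosyltransferase induced by the aryl hydrocarbon receptor, was the 1 member with both siTIMP1 arrays below both siControl arrays. It had 1.99 and 1.89 in siTIMP1, against 2.20 and 2.36 in siControl, a fold change of -0.34 (SE 0.092, adjusted p = 0.176).

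The groups overlapped for the other 6 effectors, which lay between -0.22 for Phlda1 and 0.27 for Rhob. Arc, best known as a synaptic activity gene, had the widest spread of all members. It had -0.25 and -0.07 in siTIMP1, against -0.97 and 0.48 in siControl, so both siTIMP1 arrays fell inside the siControl range and its SE was 0.468. Sgk1, a serum- and glucocorticoid-regulated kinase, was at -0.07 and Gem, a small GTP-binding protein, at 0.05. Errfi1, a feedback inhibitor of the EGF receptor, was at 0.10, while a dimmer probe annotated to it gave 0.74 (adjusted p = 0.210). That second probe carries another transcript accession, and which of the pair tracks the Errfi1 mRNA was not tested.

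**Figure D3:**
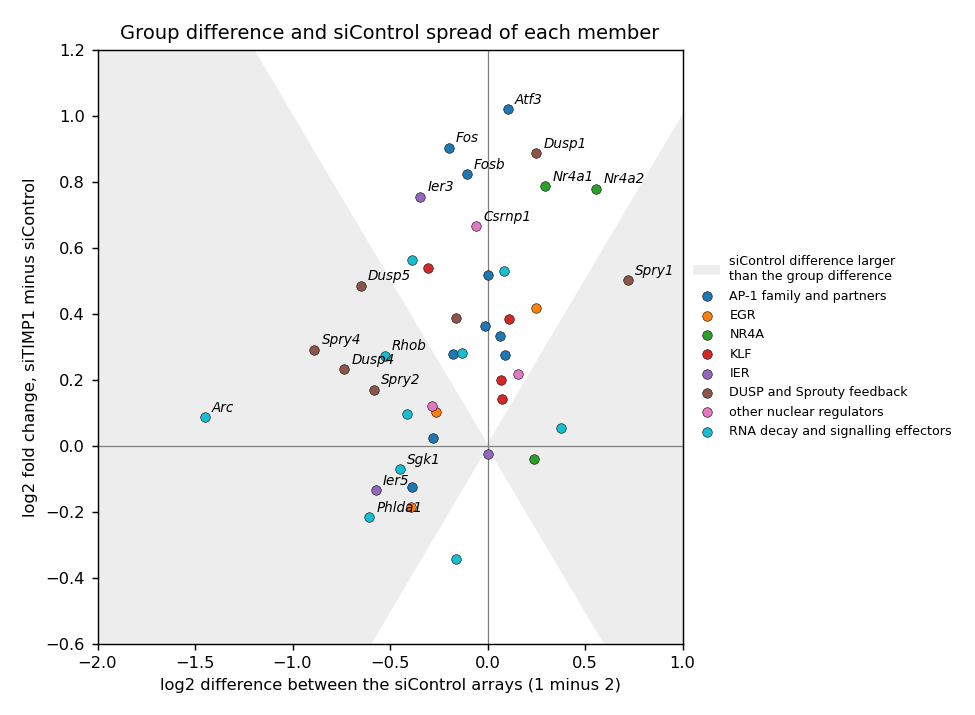
Log2 fold change of each member (siTIMP1 minus siControl, y axis) against the log2 difference between the siControl arrays (replicate 1 minus replicate 2, x axis), coloured by class. The 18 members in the grey area have a difference between siControl arrays larger than that between groups, Arc the widest at -1.45.

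Replicate arrays of the members lay farther apart in siControl than in siTIMP1, as they did over all tested genes. The median distance between replicate arrays was 0.085 in siTIMP1 and 0.266 in siControl, against 0.105 and 0.139 over all tested genes. For 33 of the 43 members the siControl arrays lay farther apart than the siTIMP1 arrays. The distance between siControl arrays exceeded the difference between groups for 18 members. No member had siTIMP1 arrays more than 0.5 apart, while 10 had siControl arrays that far apart. Of these 10, siControl replicate 2 was the higher in 8 (Arc, Spry4, Dusp4, Dusp5, Phlda1, Spry2, Ier5 and Rhob). It was the lower in 2 (Spry1 and Nr4a2). These counts were not made over all tested genes.

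The sign of a member's fold change could turn when 1 array was left out. It turned for 9 members without siControl replicate 1, for 6 without siControl replicate 2, for 2 without siTIMP1 replicate 1 and for 3 without siTIMP1 replicate 2. These were 16 genes in all, each with groups that overlapped, since groups that lie apart cannot turn in sign when 1 array is left out. Groups apart were counted again with each array left out, where they are commoner by construction. Without siControl replicate 2, 38 members (88.4%) were higher with groups apart, against 44.4% of all tested genes. Without siControl replicate 1, 26 members (60.5%) were higher with groups apart, against 42.7% of all tested genes. In that setting 12 members were lower with groups apart, a smaller share than the 36.8% of all tested genes. In the limma test without siControl replicate 1, 11 members were called higher and 2 lower (Ier5 and Phlda1), against 2.31% and 3.64% of all tested genes in the same fit. The 2 lower calls are thus near the share over all genes. In that without siControl replicate 2, 11 were called higher and none lower, against 0.51% and 1.18% of all tested genes. Atf3, Fos, Fosb, Dusp1, Nr4a1 and Ier3 were called higher both times. The 2 fits share the same siTIMP1 arrays and take each probe's own spread from those arrays alone. They are therefore not separate support for these genes. Without either siTIMP1 array no member and no other probe was called. Over all tested probes the number called higher ranged from 0 to 483 in the same 4 fits, so the counts of calls depended on which arrays were kept.

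Genes upstream of the members, taken from lists chosen with earlier results known, were counted in the same way. At an unadjusted limma p under 0.05, 11.9% of all tested genes were higher and 7.99% lower. The lists had 12.5% higher (ERK cascade), 11.8% (JNK and p38) and 7.14% (SRF, TCF and CREB factors). In the same order, 5 of 32, 1 of 17 and 2 of 14 tested genes were lower. Groups were apart and higher for 25%, 41.2% and 14.3%, against 31.1% of all tested genes. They were apart and lower for 9, 3 and 3 genes, against 22.9% of all tested genes. Of 33 genes of the ERK cascade, 32 were tested and none was called by limma, with unadjusted p-values under 0.05 for 4 higher and 5 lower genes and a median of -0.01. The smallest p-values belonged to Pdgfra, the PDGF alpha receptor, at -0.88 (adjusted p = 0.0618), to Nf1, a RAS GTPase-activating protein, at -0.57 (adjusted p = 0.0974), and to Pebp1, the RAF inhibitor protein, at -0.22. Pdgfra had 1.63 and 1.42 in siTIMP1, against 2.50 and 2.30 in siControl. Both siTIMP1 arrays were below both siControl arrays, and the gap was larger than the spread within either group. Of 18 JNK and p38 cascade genes, 17 were tested and none was called, with unadjusted p-values under 0.05 for 2 higher and 1 lower and a median of 0.07. Mapkapk5, a kinase downstream of p38, was at 0.48 (adjusted p = 0.0807), Mapkapk2 at 0.34 and Mapk8, which encodes JNK1, at -0.73 (adjusted p = 0.145). Of the 14 SRF, TCF and CREB factors none was called, with unadjusted p-values under 0.05 for 1 higher and 2 lower and a median of -0.02. Mkl2, an SRF coactivator, was at -0.50 (adjusted p = 0.0988), the coactivator Crebbp at -0.29 and Crtc2, a CREB coactivator, at 0.24.

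Other early and delayed early genes were more often higher than lower in siTIMP1. Of 47 tested, 22 had groups apart and higher (46.8%) and 7 lower, against 31.1% and 22.9% of all tested genes. Unadjusted limma p-values under 0.05 gave 16 higher (34%) and 3 lower, against 11.9% and 7.99% of all tested genes. The median was 0.15. Per1, a clock gene that serum also induces, rose as the 1 called gene. It had 1.79 and 1.79 in siTIMP1, against 1.0 and 1.0 in siControl, a fold change of 0.79 (SE 0.076, limma adjusted p = 0.0327). Replicates of Per1 nearly coincided in both groups, and its call, like that of Atf3, was lost in the fits without either siTIMP1 array and without a trend, where no probe was called. Dusp2, a nuclear MAP kinase phosphatase, was at 0.85 (adjusted p = 0.0699), the antiproliferative Btg2 at 0.81 (adjusted p = 0.0983) and Ifrd1 at 0.46 (adjusted p = 0.0927).

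Atf3 is also a target of ATF4, the factor of the amino acid and ER stress response, and that list was read beside it. Of its 10 genes none was called by limma, and the median was 0.48. Unadjusted limma p-values under 0.05 gave 2 higher (20%) and 1 lower, against 11.9% and 7.99% of all tested genes. Groups were apart and higher for 7 (70%) and lower for 1, against 31.1% and 22.9% of all tested genes. Chac1, a glutathione-degrading enzyme, had 5.69 and 5.74 in siTIMP1, against 5.15 and 4.44 in siControl (fold change 0.92, adjusted p = 0.159). Sesn2 was at 0.61 and Slc7a11, the cystine transporter, at -0.67. For 9 of the 10 genes siControl replicate 2 was lower than siControl replicate 1. Without siControl replicate 1, 8 of the 10 were called higher, against 2.31% of all tested genes in that fit. Without siControl replicate 2, 1 of the 10 was, against 0.51%. The siControl values of Atf3 lay 0.10 apart, with replicate 2 the lower, and dropping siControl replicate 1 gave a fold change of 1.07 and dropping replicate 2 gave 0.97. The part of this stress list in the Atf3 result was not tested.

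**Figure D4:**
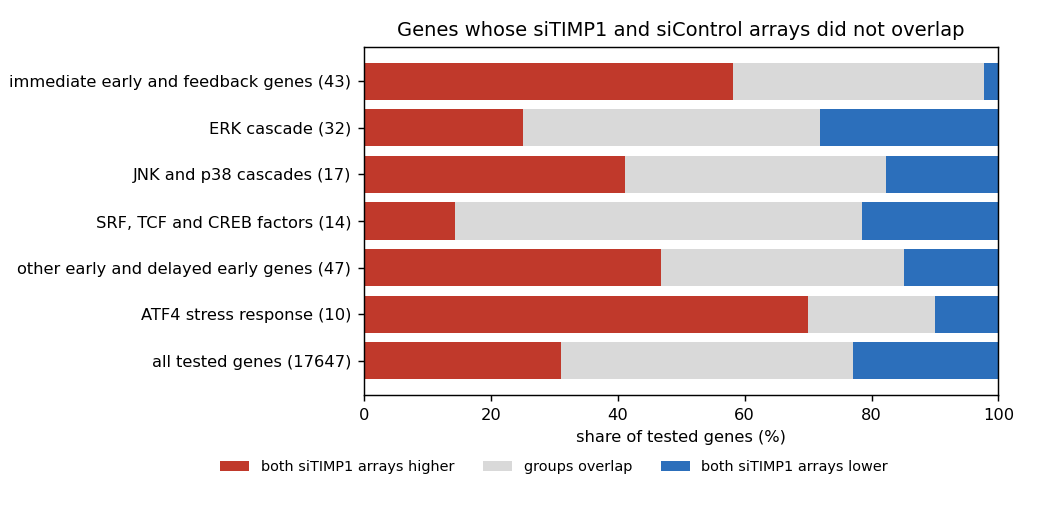
Share of tested genes (percent, x axis) with both siTIMP1 arrays above both siControl arrays (red), with groups that overlap (grey) and with both siTIMP1 arrays below (blue), for the members, each pathway list and all tested genes, with the number of genes in brackets. Red makes up 58.1% of the members, against 31.1% of all tested genes.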

How the data were processed

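Total RNA from 4 NIH3T3 samples, with the Cy3 dye alone, was measured on 1-colour Agilent arrays. The intensity values are scanner output as deposited. Per the submitters' processing notes the software was Agilent Feature Extraction, version 11.5.1.1. Its processed intensity had background subtracted, per the file headers, and no scaling from array to array. A table of log2 values was also deposited by the authors. Each of its columns followed the log2 processed signal of its array less a constant, with column medians of -3.99 and -3.91 in siTIMP1 and -3.94 and -3.86 in siControl.

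Each log2 processed signal was set relative to the 75th percentile of its array, taken without control spots. Groups were tested in R 4.3.3 by limma 3.58.1, using lmFit and then eBayes with a trend. Control and outlier spots (136 to 250 per array) were left out, no spot was saturated, and 45.9% to 52.1% of spots were well above background. Tested were 26015 probes, and a gene is its tested probe of highest mean. With 2 arrays a group, their number limits the precision. Groups come from the sample titles, and replicate numbers follow accession order and only name samples. All arrays lay on 1 slide, so slide could not be a block. Probe coordinates are mm9 and promoters are from RefSeq, GRCm38.p6. Plots were made in matplotlib 3.10.9.

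Members, classes and lists were chosen with earlier results of these data known. Values on every array are given for called members and, per class, for up to 3 members of the largest change among those whose groups do not overlap; from each list called genes and up to 3 of smallest p are named. Jun, Nr4a3, Dusp4, Dusp6, Spry4 and Arc were added after their values were seen.

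Alternatives were normexp correction (offset 50), quantile scaling, the percentile over detected probes, a stricter filter and none, eBayes without trend and robust, the authors' table, a mean over the probes of a gene, outlier spots kept, a threshold of 0.1 and leaving out each array. Those for counts of positive members and of groups that do not overlap were chosen after seeing the data.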

Additional observations from a re-analysis of the deposited data

How the results depend on the processing

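No paired analysis was possible because titles of siTIMP1 and siControl samples have no number in common. Of 602 fold changes of single members recomputed under the 14 alternatives, 562 kept their side of the threshold and, where called, their direction, 3 lost the call, 37 gained one and 0 called values reversed. The 3 losses were Atf3 without a trend and without either siTIMP1 array. The cause was not tested for any change below unless the alternative's construction shows it. Where a group kept 1 array, each probe's own spread came from the arrays of the other group alone. The single array was assumed to vary like them, and groups fail to overlap more often by construction. Without a siControl array the spread was thus that of siTIMP1, and without a siTIMP1 array that of siControl. Over all tested genes the median distance between replicate arrays was 0.105 in siTIMP1 and 0.139 in siControl.

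The 1 member called higher became 3 with quantile scaling, 2 with the percentile over detected probes, 3 with the strict filter, 7 with no filter, 0 without a trend, 5 with robust eBayes and 10 at an adjusted p under 0.1. It ranged from 0 to 11 when each array was left out, and members called lower from 0 to 2. Of all tested probes 16 were called higher, against 124 under no filter, 0 with the trend dropped, 61 under robust eBayes, 181 at 0.1, and 0 to 483 when each array was left out. The 163 called lower became 334, 0, 249, 384 and 0 to 840 under the same changes. Leaving out each array moved the median member fold change between 0.23 and 0.35, 0.35 without siControl replicate 2, and the number of positive members between 28 and 39 of 43. Members with groups apart, 25 higher, ranged from 26 to 38. The 1 lower became 2 with quantile scaling and 2 with the percentile over detected probes, and 2 to 12 when each array was left out. These shares rose over all tested genes too. When each array was left out, 41.1% to 44.4% of all tested genes were higher with groups apart, against 31.1% on all arrays. Those lower made up 32.6% to 36.8%, against 22.9%. The 12 lower members came without siControl replicate 1, where 36.8% of all tested genes were lower, a larger share than that of the members. No filter moved the median of all genes to 0.14, and no other alternative moved it by over 0.1.

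Timp1 stayed at -5.22 without a trend (adjusted p = 0.134) and between -5.41 and -5.04 when each array was left out, with adjusted p-values of 0.137 and 0.184 without siTIMP1 replicate 1 and 2. In the lists, no filter called 1 ERK cascade gene lower, 1 JNK and p38 gene higher, 1 SRF, TCF and CREB factor lower and 4 other early genes higher. Robust eBayes called 1 ERK cascade gene lower, and without a trend 0 other early genes were higher. Leaving out each array gave 0 to 1 ERK cascade genes higher and 0 to 3 lower, 0 to 1 JNK and p38 genes higher, 0 to 9 other early genes higher and 0 to 3 lower, and 0 to 8 ATF4 genes higher and 0 to 1 lower.

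The class medians moved as follows when each array was left out: 0.33 to 0.39 for the AP-1 class, -0.031 to 0.235 for EGR, 0.50 to 0.93 for NR4A, 0.25 to 0.31 for KLF, -0.067 to 0.152 for IER, 0.16 to 0.60 for the feedback genes, 0.090 to 0.344 for the other nuclear regulators and -0.050 to 0.324 for the effectors. Quantile scaling gave 0.31 for the AP-1 class and 0.23 for KLF, and the percentile over detected probes gave 0.31 and 0.25.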
